A study of Mus musculus with 15 samples.

Results

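The circadian clock genes described here are 10 genes: the activators Arntl and Clock, the repressors Per1, Per2, Per3, Cry1 and Cry2, the nuclear receptors Nr1d1 and Nr1d2, and the output factor Dbp. They were chosen by name, as every non-control probe whose file name, current symbol or older symbol was one of these genes, which gave 18 of 41174 probes and 10 of the 20307 genes tested. Each was measured in whole uterus of CD-1 mice, which are outbred; in every group, vehicle included, the ovaries had been removed. Mice had received 1 injection of 100 µl of saline, alone as vehicle or with 250 ng of E2 or of E3, read here as estradiol and estriol; the D ring of estriol bears 1 hydroxyl group more. Uteri were collected 2 h or 24 h after the oestrogen, which gave 5 groups (vehicle, both oestrogens at 2 h, and both at 24 h) of 3 one-colour arrays each.

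The clock is a loop of transcription that runs in most cells. BMAL1, the product of Arntl, pairs with CLOCK and activates genes through E-boxes, among them the Per, Cry, Nr1d1, Nr1d2 and Dbp genes; PER and CRY proteins then repress that pair, and the REV-ERB receptors made from Nr1d1 and Nr1d2 repress Arntl. The loop runs in uterine cells too, and Per1 and Per2 are also known to respond within hours to hormones and cAMP.

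The clock hour of collection is in no label, for vehicle or for the oestrogen groups. Hour of day and treatment cannot be told apart in any comparison, whether with vehicle, between the times or of E2 with E3. The 3 vehicle arrays lay on 1 slide that held no other group, so slide and treatment cannot be told apart in comparisons with vehicle. E2 and E3 arrays of the same time shared no slide either, so E2 against E3 was also compared between slides. Both 24 h and both 2 h groups are compared with the same vehicle arrays. The 75th percentile of signal ran from 1053 to 1854 per array, and 63.7% to 80.3% of spots were well above background. Every probe of the 10 genes was well above background on all 15 arrays, except 1 dim Clock probe on 1 E3 24 h array, and 0 were saturated. The median standard deviation per gene was highest in E3 24 h, at 0.28, and 0.17 to 0.20 elsewhere, so standard errors pooled over groups tend to be too small for E3 24 h. Among the 10 clock genes the median was highest in vehicle, at 0.31, with 0.27 in E3 24 h and 0.17 to 0.21 elsewhere; vehicle enters 4 of the comparisons. The labels do not say that the arrays are separate animals, so each p-value speaks only of the scatter among these arrays, part of which may be technical.

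Promoter sequence from RefSeq (GRCm38.p6) was given for 9 of the 10 genes, in 13 windows, and Per2 had no entry. The windows below, the 250 bases before the start site, are shown because they hold letters that clock factors are known to bind. Both strands were searched. Capitals mark the E-box, with the letters CACGTG, or a variant of it called the E-prime box, with the letters CACGTT (the windows that hold it show its reverse complement). In Per3 they mark the D-box TTATGTAA.
Cry1, chr10:85185055-85185304, minus strand: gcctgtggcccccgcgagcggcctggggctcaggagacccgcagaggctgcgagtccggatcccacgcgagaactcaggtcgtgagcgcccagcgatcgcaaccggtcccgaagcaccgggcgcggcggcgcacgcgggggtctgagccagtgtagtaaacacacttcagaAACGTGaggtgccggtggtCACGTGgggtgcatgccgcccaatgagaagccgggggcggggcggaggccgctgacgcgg
Cry2, chr2:92434070-92434319, minus strand: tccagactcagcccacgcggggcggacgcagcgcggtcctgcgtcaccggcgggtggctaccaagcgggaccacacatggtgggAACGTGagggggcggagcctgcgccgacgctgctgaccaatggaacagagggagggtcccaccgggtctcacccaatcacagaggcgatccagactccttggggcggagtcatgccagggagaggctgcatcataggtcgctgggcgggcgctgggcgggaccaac
Nr1d1, chr11:98775378-98775627, minus strand: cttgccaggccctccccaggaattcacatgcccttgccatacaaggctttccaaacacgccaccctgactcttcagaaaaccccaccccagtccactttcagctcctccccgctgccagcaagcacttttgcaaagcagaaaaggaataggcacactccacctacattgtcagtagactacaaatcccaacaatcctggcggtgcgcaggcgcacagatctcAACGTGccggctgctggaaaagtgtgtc
Per1, first start site, chr11:69098699-69098948, plus strand: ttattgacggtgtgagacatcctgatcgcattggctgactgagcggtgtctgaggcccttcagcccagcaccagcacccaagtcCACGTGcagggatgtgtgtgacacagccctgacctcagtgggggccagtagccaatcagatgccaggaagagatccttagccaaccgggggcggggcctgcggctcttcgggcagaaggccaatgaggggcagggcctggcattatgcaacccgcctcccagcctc
Per3, chr4:151044666-151044915, minus strand: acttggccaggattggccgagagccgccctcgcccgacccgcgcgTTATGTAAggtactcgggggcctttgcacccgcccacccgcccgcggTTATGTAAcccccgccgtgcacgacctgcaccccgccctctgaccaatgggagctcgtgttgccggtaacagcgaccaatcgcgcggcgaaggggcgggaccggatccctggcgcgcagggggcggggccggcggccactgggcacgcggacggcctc
An E-box stood in Cry1, at base -60 from the start, and in Per1, at -166; 6.02% of 32851 promoter windows of the same length hold one. The E-prime box stood in Cry1 at -79, Cry2 at -166 and Nr1d1 at -28, against 3.85% of all windows. Per3 alone of the 9 genes held a D-box (TTATGTAA or TTACGTAA), at -205 and at -158, against 0.931% of all windows. The letters TAGGTCA of the ROR element, TGACGTCA of the cAMP response element and the oestrogen response element (GGTCA, any 3 bases, then TGACC) were in 0 of the 13 windows, and in 2.23%, 1.55% and 0.0639% of all windows. The E-box and the E-prime box do not overlap each other in Cry1. A match is a description of letters in this window, not of binding.

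The array reads transcripts through probes of 60 bases. The probes that represent Arntl, Cry1 and Nr1d1, and another Nr1d1 probe, are shown because the changes below were read at them; coordinates are mm7, as the array files give them.
Arntl, chr7:109229489-109229548, plus strand: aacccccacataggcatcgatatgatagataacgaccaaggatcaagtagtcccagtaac
Cry1, chr10:84685114-84685173, minus strand: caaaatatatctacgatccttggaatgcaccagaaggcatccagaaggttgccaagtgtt
Nr1d1, chr11:98878251-98878753, minus strand, a span of 503 bases: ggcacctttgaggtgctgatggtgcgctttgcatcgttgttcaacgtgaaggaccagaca
Nr1d1, chr11:98881057-98881116, minus strand: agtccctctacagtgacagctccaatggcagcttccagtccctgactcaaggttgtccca
In what follows, a level is the log2 signal of the representative probe (the probe of the gene with the highest mean) minus the array's 75th percentile, so a difference of 1 is 2-fold. Levels are compared between groups, never between genes. Changes are log2 differences of group means ± standard error, n = 3 arrays per group, with limma's p adjusted by Benjamini-Hochberg over all 20307 genes; a gene is called at an adjusted p under 0.05.

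Each 2 h group was set against vehicle to ask which clock transcripts had changed soon after each oestrogen. With E2, Per2, Cry2, Cry1 and Nr1d2 rose and Nr1d1, Dbp and Arntl fell. With E3, Per2, Cry2, Per1 and Nr1d2 rose and Nr1d1 and Dbp fell. That is 7 of 10 with E2 where 38.7% of all genes were called, and 6 of 10 with E3 where 40.2% were. The median change of the 10 genes was 0.20 with E2 and 0.28 with E3, against -0.14 and -0.16 over all genes tested. With each array's median in place of its 75th percentile as the scale, the median over all genes moved to 0.04 and 0.08 at 2 h (and from -0.02 and 0.00 to 0.20 and 0.14 at 24 h), and no called clock gene changed direction. All 3 oestrogen arrays lay on one side of all 3 vehicle arrays for 7 genes with E2 and for 8 with E3, where 55.5% and 55.6% of all genes did so.

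**Figure D1:**
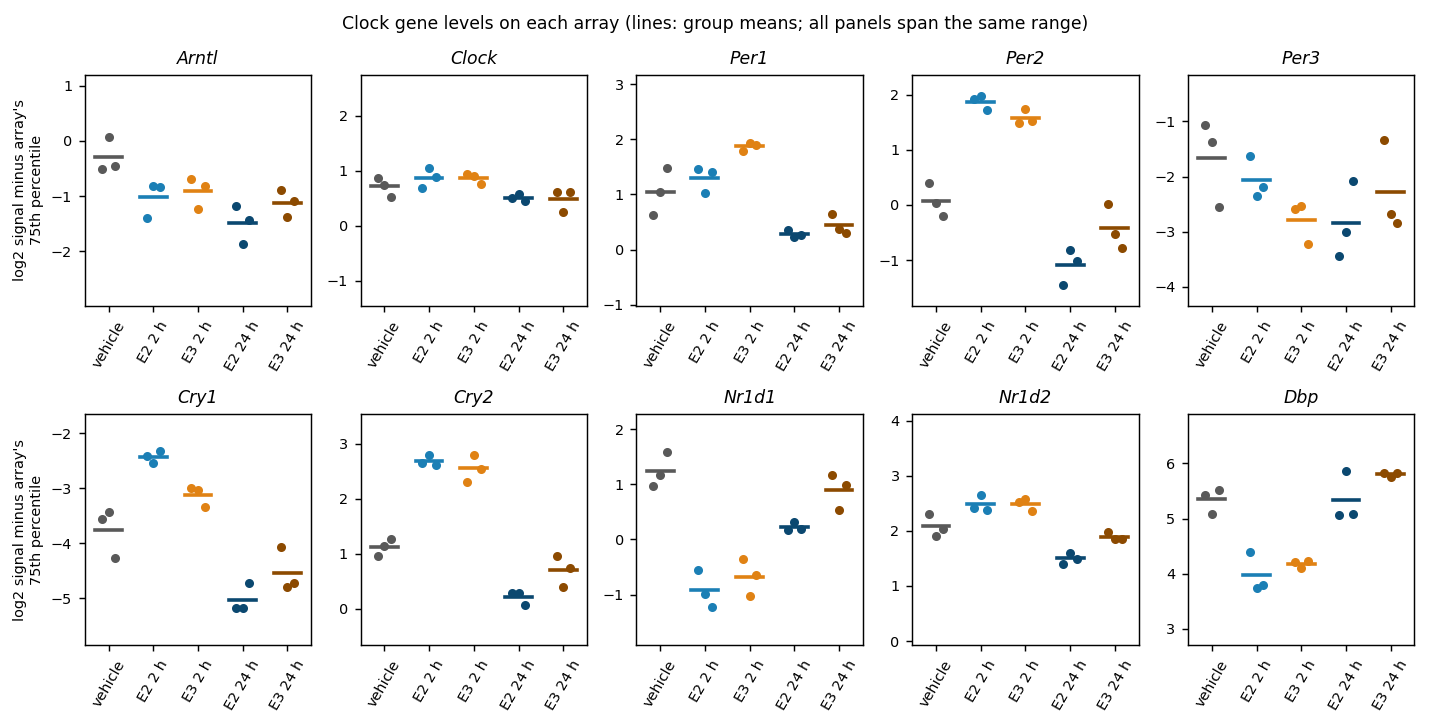
Level of each clock gene on each array, as log2 signal minus the 75th percentile of that array (vertical axis), in 5 groups of 3 arrays; points are arrays and lines are group means, and every panel spans the same range. Per2 and Cry2 are high in both 2 h groups and low in E2 24 h, whereas Nr1d1 and Dbp are lowest at 2 h.

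Among the repressors, Per2, whose protein binds CRY and returns with it to the nucleus, had levels of 0.40, 0.04 and -0.20 on the vehicle arrays, 1.92, 1.97 and 1.72 with E2 at 2 h and 1.48, 1.75 and 1.52 with E3 at 2 h. All 6 oestrogen arrays lay above all 3 vehicle arrays. Per2 rose by 1.79 ± 0.22 with E2 (3.47-fold, adjusted p = 5.7e-05) and by 1.50 ± 0.22 with E3 (2.83-fold, adjusted p = 0.0002). Its other probe rose less, by 0.91 ± 0.18 and 0.76 ± 0.18 (adjusted p = 0.0015 and 0.0047, adjusted over all probes).

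Cry2, a cryptochrome that represses CLOCK and BMAL1, had levels of 0.97, 1.14 and 1.26 in vehicle, 2.64, 2.79 and 2.62 with E2 and 2.30, 2.80 and 2.54 with E3. Here too the groups did not overlap. Cry2 rose by 1.56 ± 0.16 with E2 (2.95-fold, adjusted p = 1.6e-05) and by 1.43 ± 0.16 with E3 (2.69-fold, adjusted p = 3.1e-05), and its other probe rose by 0.86 ± 0.20 and 0.57 ± 0.20.

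Cry1, the other cryptochrome, had levels of -3.55, -3.43 and -4.27 in vehicle, -2.42, -2.54 and -2.32 with E2 and -3.0, -3.03 and -3.35 with E3. Its E2 arrays were highest, its E3 arrays lay between them and vehicle, and no groups overlapped. Cry1 rose by 1.32 ± 0.24 with E2 (2.50-fold, adjusted p = 0.00094). With E3 its difference was 0.62 ± 0.24 (adjusted p = 0.056), while its other probe rose by 0.97 ± 0.21 (adjusted p = 0.0025), and the representative probe was called with E3 under 5 of the other settings and without vehicle replicate 2 (0.78).

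Per1, a period gene with rapid induction by many stimuli, had levels of 0.62, 1.04 and 1.48 in vehicle, 1.46, 1.03 and 1.41 with E2 and 1.79, 1.93 and 1.90 with E3. Its E2 arrays lay inside the vehicle range, and its E3 arrays lay above it. Per1 rose with E3 by 0.82 ± 0.19 (1.77-fold, adjusted p = 0.0044), and its difference with E2 was 0.26 ± 0.19 (adjusted p = 0.32). Per3, a period gene that is not required for the loop, varied from -2.55 to -1.06 within vehicle. Its differences were -0.40 ± 0.48 with E2 and -1.12 ± 0.48 with E3 (adjusted p = 0.55 and 0.084), and the E3 value was -1.56, and called, without vehicle replicate 3, the array with the lowest Per3 in vehicle.

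Of the REV-ERB receptors, Nr1d1 had levels of 0.96, 1.18 and 1.59 in vehicle, -0.55, -0.99 and -1.23 with E2 and -0.35, -1.03 and -0.64 with E3. Every 2 h oestrogen array lay more than 1 log2 unit below the lowest vehicle array. Nr1d1 fell by 2.17 ± 0.23 with E2 (4.50-fold, adjusted p = 2e-05) and by 1.92 ± 0.23 with E3 (3.79-fold, adjusted p = 4.8e-05), the largest changes among the 10 genes in either comparison. The other Nr1d1 probe printed above fell by 1.59 ± 0.20 and 1.49 ± 0.20, and the last Nr1d1 probe fell with E3, by 0.91 ± 0.29, and was at -0.65 ± 0.29 with E2 (adjusted p = 0.092).

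Nr1d2, the paralog of Nr1d1, did not move with it. Its levels were 2.31, 1.90 and 2.03 in vehicle, 2.42, 2.64 and 2.37 with E2 and 2.52, 2.57 and 2.36 with E3, so the groups lay apart by a small margin. Nr1d2 rose by 0.40 ± 0.12 with each oestrogen (1.32-fold, adjusted p = 0.023 and 0.021), calls that were lost under 7 of 18 alternatives each (other settings, or 1 array left out).

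Dbp, a PAR bZIP activator of D-box genes and a direct target of CLOCK and BMAL1, had levels of 5.44, 5.08 and 5.52 in vehicle, 4.40, 3.74 and 3.80 with E2 and 4.22, 4.10 and 4.23 with E3. All 6 oestrogen arrays lay below every vehicle array. Dbp fell by 1.37 ± 0.22 with E2 (2.59-fold, adjusted p = 0.00041) and by 1.16 ± 0.22 with E3 (2.24-fold, adjusted p = 0.0012).

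Of the activators, Arntl had levels of -0.51, 0.08 and -0.45 in vehicle, -1.40, -0.82 and -0.84 with E2 and -0.69, -1.24 and -0.81 with E3. Neither oestrogen group overlapped vehicle, with a narrow gap at E3. Arntl fell by 0.73 ± 0.24 with E2 (1.66-fold, adjusted p = 0.029), a call lost under 5 of 18 other settings, among them without vehicle replicate 2 (-0.54) or E2 2 h replicate 1 (-0.54), and its difference with E3 was -0.62 ± 0.24 (adjusted p = 0.056). Clock differed by 0.15 ± 0.14 with each oestrogen (adjusted p = 0.41 for each).

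Among the arrays of scan day 1, which leaves out 1 array from each 2 h group, 5 of the 10 genes were called with E2 and 6 with E3, where 41.2% and 40.9% of all genes were. The values there were 1.77 and 1.55 for Per2, 1.58 and 1.55 for Cry2, -2.36 and -2.08 for Nr1d1 and -1.58 and -1.18 for Dbp.

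**Figure D2:**
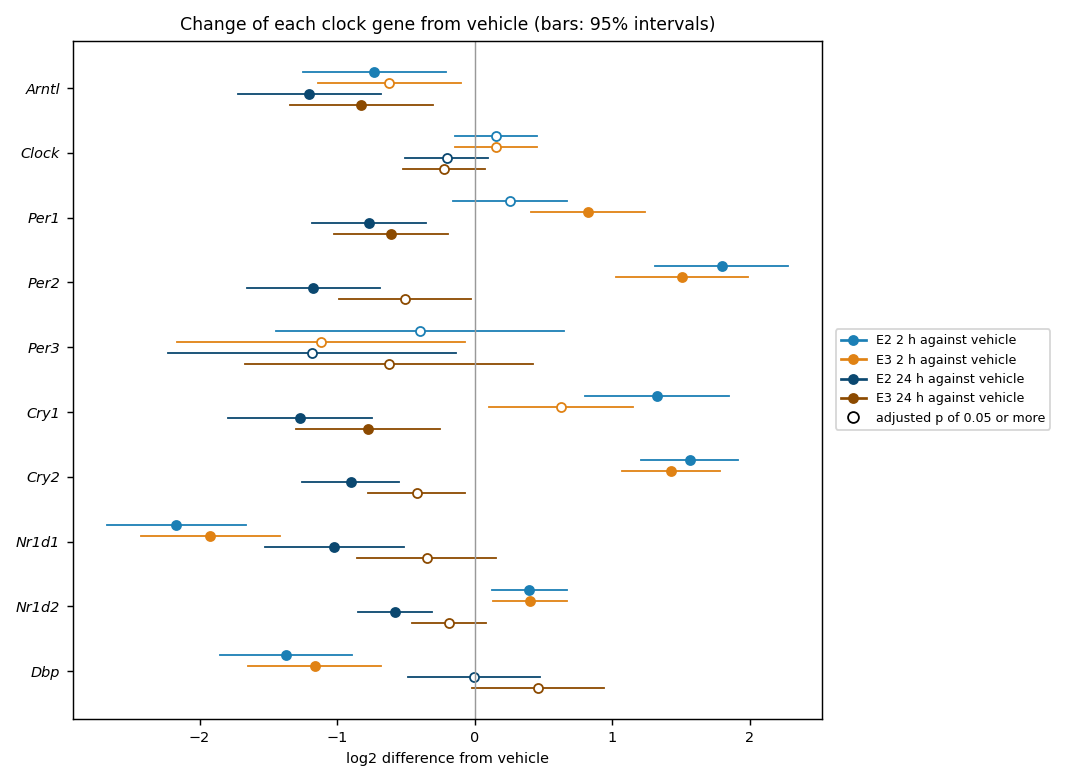
Log2 difference of each clock gene from vehicle (horizontal axis) in the 4 oestrogen groups, with 95% intervals as bars; filled points have an adjusted p under 0.05. Per2, Cry1 and Cry2 lie right of 0 at 2 h and left of it at 24 h, and Nr1d1 and Dbp lie farthest left at 2 h.

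The same comparison at 24 h asks which of these transcripts differed a day after the injection. With E2, Cry1, Arntl, Per2, Nr1d1, Cry2, Per1 and Nr1d2 were lower than in vehicle, and 0 of the 10 were higher. That is 7 of 10 where 43.4% of all genes were called and 22.3% were called lower. With E3, Arntl, Cry1 and Per1 were called lower, 3 of 10 where 20.4% of all genes were called and 10.7% were called lower. The arrays lay apart from vehicle for 7 of the 10 genes with E2, where 56.1% of all genes did so, and for 2 with E3, where 36.1% did. The median change of the 10 genes was -0.96 with E2 and -0.46 with E3, against -0.02 and 0.00 over all genes.

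Per2 had levels of -1.44, -0.82 and -1.02 with E2 at 24 h and 0.03, -0.53 and -0.77 with E3, beside -0.20 to 0.40 in vehicle. The E2 arrays lay below vehicle, and the E3 arrays overlapped it. Per2 fell by 1.17 ± 0.22 with E2 (2.25-fold, adjusted p = 0.0012), and its difference with E3 was -0.51 ± 0.22 (adjusted p = 0.12). Its other probe gave -0.33 ± 0.18 with E2 (adjusted p = 0.15) and 0.01 ± 0.18 with E3, so the fall rests on 1 probe, and the mean of both probes gave -0.75 with E2.

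Cry2 had levels of 0.28, 0.29 and 0.08 with E2 at 24 h and 0.97, 0.39 and 0.74 with E3, beside 0.97 to 1.26 in vehicle. The E2 arrays lay below vehicle, and E3 24 h replicate 1 reached it. Cry2 fell by 0.90 ± 0.16 with E2 (1.87-fold, adjusted p = 0.00093) and had -0.42 ± 0.16 with E3 (adjusted p = 0.084). Its other probe fell with both, by 1.26 ± 0.20 with E2 and by 0.76 ± 0.20 with E3 (adjusted p = 0.023).

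Cry1 had levels of -5.18, -5.18 and -4.72 with E2 at 24 h and -4.07, -4.80 and -4.72 with E3. The E2 arrays lay below every vehicle array, and E3 24 h replicate 1 lay within the vehicle range. Cry1 fell by 1.27 ± 0.24 with E2 (2.41-fold, adjusted p = 0.0013) and by 0.78 ± 0.24 with E3 (1.72-fold, adjusted p = 0.04). The Cry1 probe is dim, and with a normexp background the differences shrank to -0.53 with E2 and to -0.20 with E3, and the E3 call was lost. The other Cry1 probe fell by 1.03 ± 0.21 with E2 and had -0.35 ± 0.21 with E3 (adjusted p = 0.23).

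Per1 had levels of 0.35, 0.22 and 0.27 with E2 at 24 h and 0.65, 0.37 and 0.29 with E3, and only E3 24 h replicate 1 reached the vehicle range. Per1 fell by 0.77 ± 0.19 with E2 (1.70-fold, adjusted p = 0.0065). With E3 it fell by 0.61 ± 0.19 (1.53-fold, adjusted p = 0.042), a value of -0.40, no longer called, without vehicle replicate 3. Per3 had -1.18 ± 0.48 with E2 and -0.63 ± 0.48 with E3 (adjusted p = 0.065 and 0.37); without vehicle replicate 3 the E2 value was -1.62 and called.

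Nr1d1 had levels of 0.17, 0.31 and 0.18 with E2 at 24 h, below every vehicle array, and 1.16, 0.54 and 0.98 with E3, which overlapped vehicle. Nr1d1 fell by 1.02 ± 0.23 with E2 (2.03-fold, adjusted p = 0.0039) and had -0.35 ± 0.23 with E3 (adjusted p = 0.30). Of the 3 Nr1d1 probes, 2 were called lower with E2, with values from -1.02 to -0.47. With E3 0 were called, with values from -0.35 to -0.06. Nr1d2 fell by 0.58 ± 0.12 with E2 (1.50-fold, adjusted p = 0.0027), from levels of 1.90 to 2.31 to levels of 1.40 to 1.60, and had -0.19 ± 0.12 with E3 (adjusted p = 0.29). On the scale of the array median the Nr1d2 value with E2 was -0.36, still called.

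Dbp was not called at 24 h: it was at 5.07, 5.86 and 5.09 with E2 at 24 h, across the vehicle range, and at 5.83, 5.75 and 5.83 with E3, above every vehicle array. Its differences were -0.01 ± 0.22 with E2 (95% interval -0.49 to 0.48, adjusted p = 0.99) and 0.46 ± 0.22 with E3 (adjusted p = 0.16).

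Arntl had levels of -1.18, -1.87 and -1.44 with E2 at 24 h and -0.90, -1.38 and -1.08 with E3, all below the 3 vehicle arrays. Arntl fell by 1.20 ± 0.24 with E2 (2.30-fold, adjusted p = 0.0017) and by 0.83 ± 0.24 with E3 (1.77-fold, adjusted p = 0.032). It was the only gene of the 10 with every oestrogen array of all 4 groups below vehicle.

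All 7 calls of E2 at 24 h were kept under each of 18 other settings, and all 7 were called on scan day 1 alone, where 41.8% of all genes were. The 3 calls of E3 at 24 h were not kept under many of them. On the scale of the array median 0 of the 10 genes were called while 21.3% of all genes were. The count was also 0 where calls fell over all genes: with slide as a random block (12.2% of all genes), with scan day as a block (11.6%), on scan day 1 alone (11.3%), without the filter on dim probes (9.73%), without E3 24 h replicate 3 (15.3%) or replicate 2 (11.3%), without vehicle replicate 2 (7.22%), and in a fit of these groups only, where 1 gene in all was called. Without vehicle replicate 1, 1 clock gene was called (Per1; 7.04% of all genes), and without E3 24 h replicate 1, 5 were (26.1%). On scan day 1 alone the 3 genes had -0.70 (Arntl), -0.64 (Cry1) and -0.58 (Per1), so the direction was the same there.

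The 4 probes of Clock, the partner of Arntl, did not give 1 answer. The representative probe, at chr5:76144675-76144734, had -0.21 ± 0.14 with E2 and -0.23 ± 0.14 with E3 at 24 h (adjusted p = 0.25 for E2 and 0.26 for E3 in the fit of genes). The other 3 probes fell with both oestrogens at 24 h: by 0.49 ± 0.17 and 0.63 ± 0.17 at chr5:76145071-76145130, by 1.16 ± 0.18 and 0.84 ± 0.18 at chr5:76167876-76167935, and by 1.20 ± 0.32 and 1.32 ± 0.32 at chr5:76186708-76186767, the dim probe that missed background on 1 array. These coordinates are mm7, on the minus strand, so the probes lie in order from the 3′ side, and which exon or untranslated region each reads was not analysed here. With the mean of the 4 probes Clock was called at 24 h, at -0.76 with E2 and at -0.75 with E3. At 2 h with E2 the probe at chr5:76167876-76167935 fell by 0.50 ± 0.18 (adjusted p = 0.045), against 0.15 ± 0.14 at the representative probe.

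**Figure D3:**
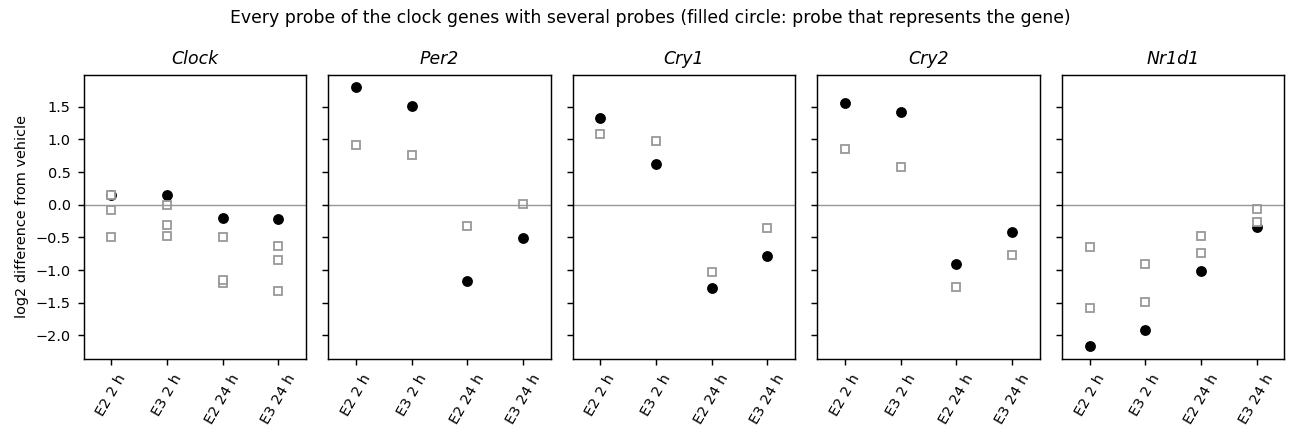
Log2 difference from vehicle (vertical axis) at every probe of the 5 clock genes with several probes, in the 4 oestrogen groups; filled circles are the representative probes and open squares the others. The Clock squares at 24 h lie below its circle, and the Nr1d1 squares at 2 h lie above its circle.

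The comparisons of E2 with E3 ask whether the oestrogens, at the same dose and time, left different levels; 1 pair of compounds was compared at 2 times. At 2 h limma called 0 of the 10 clock genes and 0.0% of all genes, with 2 of the 10 and 750 of all genes at an unadjusted p under 0.05. The 2 were Cry1, where E2 was higher by 0.70 ± 0.24 (95% interval 0.18 to 1.22, adjusted p = 1), and Per1, where E2 was lower by 0.57 ± 0.19 (95% interval of E2 minus E3 -0.98 to -0.15, adjusted p = 1). In both, the 3 arrays of one oestrogen lay clear of the 3 of the other, as they did in 3 of the 10 genes and in 12.7% of all genes. The other Cry1 probe differed by 0.11 ± 0.21. The intervals were -0.19 to 0.77 for Per2, -0.22 to 0.49 for Cry2, -0.75 to 0.26 for Nr1d1 and -0.69 to 0.28 for Dbp. A 2-fold difference lay outside these 4, whereas the Cry1 interval above held it. The widest 95% interval of the 10 genes reached 1.05 on each side of its difference. Per3, with means of -2.06 with E2 and -2.78 with E3, was the other gene whose arrays lay apart. A p that misses the threshold does not show that the compounds act alike.

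At 24 h the E2 level was lower than the E3 level in 9 of the 10 genes and 0.02 higher in Clock, and limma called 0 of the 10, where 15.8% of all genes were called. The 4 genes at an unadjusted p under 0.05, as were 6080 of all genes, were Per2 (-0.67 ± 0.22, 95% interval -1.15 to -0.19), Nr1d1 (-0.67 ± 0.23, -1.18 to -0.17), Cry2 (-0.48 ± 0.16, -0.83 to -0.13) and Nr1d2 (-0.39 ± 0.12, -0.66 to -0.12). Their adjusted p ran from 0.05 to 0.07, and in each the E2 arrays all lay below the E3 arrays, where 28.6% of all genes had groups that did not overlap. The median E2 minus E3 difference over the 10 genes was -0.47, against -0.02 over all genes. Between 1 and 2 genes were called under 5 other settings, where 14.9% to 19.4% of all genes were. They were Nr1d2, Per2, Cry1, Cry2 or Nr1d1 depending on the setting. Under slide as a fixed block 0 of the 10 were called, as were 0.0% of all genes.

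**Figure D4:**
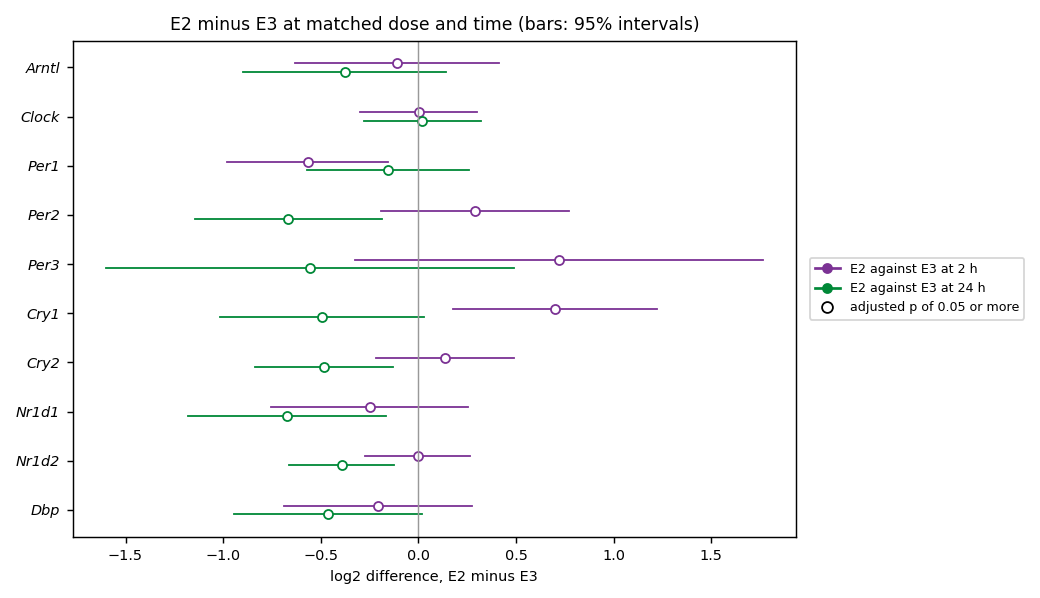
E2 minus E3 for each clock gene (horizontal axis, log2) at 2 h and at 24 h, with 95% intervals as bars; open points have an adjusted p of 0.05 or more, as all 20 do. At 24 h 9 of the points lie left of 0, whereas at 2 h they lie on both sides.

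The comparisons of 24 h with 2 h, whose differences use no vehicle array although their standard errors come from the fit of all arrays, ask how the levels differed between the times within each oestrogen. Per2, Cry1, Cry2, Per1, Nr1d2 and Clock were lower at 24 h and Nr1d1 and Dbp higher, with E2 and with E3. That is 8 of 10 each, where 52.3% of all genes were called with E2 and 49.7% with E3. Per2 differed by -2.97 ± 0.22 with E2 (7.81-fold, adjusted p = 9.9e-07) and by -2.01 ± 0.22 with E3 (4.03-fold, adjusted p = 2.1e-05). Its other probe differed less, by -1.25 with E2 and -0.75 with E3, and was called with both. Cry1 differed by -2.59 ± 0.24 and -1.40 ± 0.24, or by -1.51 and -0.65 with a normexp background. Nr1d1 was higher at 24 h by 1.15 ± 0.23 with E2 and 1.57 ± 0.23 with E3 (adjusted p = 0.0013 and 0.00018), and Dbp by 1.36 ± 0.22 and 1.62 ± 0.22. Of the 3 Nr1d1 probes, 2 were called higher with E2, where the lowest value was 0.18. All 3 were with E3, where the lowest was 0.85.

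When slide was a fixed block among treated arrays, 0 of the 10 clock genes were called for E3, and over all genes 134, or 0.66%: E3 2 h and E3 24 h arrays shared no slide. There Per2 was at -2.56 and Cry2 at -2.19, but Nr1d1 was at 0.48 and Dbp at 0.15. For E2, 8 were called, where 38.3% of all genes were. Of the 8 calls with E2, 7 were kept under each of 19 other settings, and that of Clock (-0.36 ± 0.14, adjusted p = 0.044) was lost under 10. With E3 the Clock call (-0.38 ± 0.14, adjusted p = 0.038) was also lost under 10 of 19. These values are of the representative Clock probe. Among all 4 Clock probes, 4 were called lower with E2, from -1.11 to -0.36, and 3 with E3, where values ran from -1.01 to -0.37. The E2 and E3 differences between the times were then set against each other, and limma called 0 of the 10 genes, where 6.22% of all genes were called, with 4 of the 10 and 4721 of all genes at an unadjusted p under 0.05. The smallest adjusted p was that of Cry1 (difference -1.19 ± 0.34, adjusted p = 0.059), which was called under normexp, with probes well above background on all 15 arrays, with the mean of probes and with array weights.

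The order of the group means shows the same split among the genes. For Per2, Cry1 and Cry2 it ran E2 2 h, E3 2 h, vehicle, E3 24 h, E2 24 h from high to low. For Per1 it ran E3 2 h, E2 2 h, vehicle, E3 24 h, E2 24 h. For Nr1d1 it ran vehicle, E3 24 h, E2 24 h, E3 2 h, E2 2 h, and for Dbp E3 24 h, vehicle, E2 24 h, E3 2 h, E2 2 h. For Arntl it ran vehicle, E3 2 h, E2 2 h, E3 24 h, E2 24 h, with no call between the E2 or E3 groups of different times. Nr1d2 had both 2 h groups highest, then vehicle, E3 24 h and E2 24 h, and Per3 ran vehicle, E2 2 h, E3 24 h, E3 2 h, E2 24 h with no call in any comparison. In the orders of the other 7 genes the neighbouring E2 and E3 groups of 1 time did not differ beyond the spread by the adjusted p. Nor did vehicle and E3 24 h where they were neighbours, except in Cry1 and Per1. Neither did vehicle and E2 2 h in Per1, vehicle and E3 2 h in Cry1 and Arntl, or vehicle and E2 24 h in Dbp. E2 24 h and E3 2 h were not compared, and neither were E2 2 h and E3 24 h, which are neighbours in Arntl.

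Other genes of the clock, from lists written for the loop and its regulation, are given next; over all genes 38.7% were called with E2 at 2 h (3157 higher, 4695 lower), 40.2% with E3 at 2 h (3370 higher, 4799 lower), 43.4% with E2 at 24 h (4278 higher, 4537 lower) and 20.4% with E3 at 24 h (1970 higher, 2165 lower). The median change over all genes in that order was -0.14, -0.16, -0.02 and 0.00. Of 8 further loop genes tested, 3 rose and 3 fell with E2 at 2 h, 2 rose and 3 fell with E3 at 2 h. With E2 at 24 h 1 rose and 3 fell, and 0 were called with E3 at 24 h; the medians of the list, in the same order, were 0.15, -0.14, -0.59 and -0.30. Rorb, an activator at the element through which REV-ERB represses, had levels of -0.98 to -1.20 in vehicle and of -4.44 to -3.61 over both 2 h groups, a fall of 2.80 ± 0.18 with E2 and 3.20 ± 0.18 with E3 (adjusted p = 4.9e-07 and 1.7e-07). Its other probes gave weaker values, -0.77 and -1.60 at one, and -0.28 and -0.57 at the other. Bhlhe40 (DEC1), which competes at E-boxes, rose by 2.27 ± 0.30 and 2.14 ± 0.30 (adjusted p = 9.2e-05 and 0.00014), from at most 0.27 in vehicle to at least 2.24 at 2 h. Its paralog Bhlhe41 (DEC2) fell by 1.48 ± 0.35 and 1.91 ± 0.35 (adjusted p = 0.0057 and 0.0011), or by 0.68 and 0.69 with a normexp background, both still called.

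Of the 3 other D-box factors, 1 rose and 1 fell at 2 h with each oestrogen, 3 fell with E2 at 24 h and 0 were called with E3 at 24 h (medians -0.09, -0.15, -0.70 and -0.10). Nfil3, a repressor that competes with Dbp at D-boxes, had levels of 0.12, 0.26 and 0.29 in vehicle, 2.86, 2.99 and 3.17 with E2 and 2.78, 3.19 and 3.10 with E3. Nfil3 thus rose where Dbp fell, by 2.78 ± 0.19 and 2.80 ± 0.19 (adjusted p = 6.6e-07 and 5.9e-07), and its other probe rose by 2.87 and 2.86. Hlf, an activator of the Dbp family, fell by 0.96 ± 0.17 and 0.94 ± 0.17 at 2 h and by 1.40 ± 0.17 with E2 at 24 h (adjusted p = 0.00067, 0.00076 and 7.4e-05). With E3 at 24 h Hlf was at -0.40 ± 0.17 (adjusted p = 0.11), and there E2 lay below E3 by 1.00 ± 0.17 (adjusted p = 0.0024).

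Of 9 kinases and ubiquitin ligase adaptors that set the stability of PER and CRY, 4 rose and 0 fell at 2 h with each oestrogen, 3 fell with E2 at 24 h and 0 were called with E3 at 24 h (medians 0.01, 0.11, 0.02 and 0.05). Csnk1a1, a casein kinase, rose by 1.04 ± 0.13 and 1.11 ± 0.13 at 2 h (adjusted p = 6.1e-05 and 3.5e-05), and Csnk1d, a kinase that phosphorylates PER, by 0.41 ± 0.12 and 0.56 ± 0.12. Of the 5 Csnk1a1 probes, 4 rose with each oestrogen. Fbxw11, a ligase adaptor, rose by 0.45 ± 0.10 and 0.49 ± 0.10, and Csnk2a1, a subunit of casein kinase II, by 0.35 ± 0.12 and 0.42 ± 0.12, the former lost under 10 of 18 settings; their other probes were not called at 2 h. Of 8 clock output genes, 1 rose and 1 fell with E2 at 2 h, and 2 rose and 1 fell with E3, both no more than the share over all genes. At 24 h, 1 rose and 3 fell with E2, and 2 fell with E3, and the 4 medians were -0.01, -0.01, -0.18 and -0.04. Tsc22d3, a leucine zipper gene also induced by glucocorticoids, fell by 1.02 ± 0.19 and 1.12 ± 0.19 at 2 h, and Lonrf3, a ring finger gene, rose by 1.39 ± 0.19 with each, although its other probe gave 0.58 and 0.20 and was not called. Sirt1, a deacetylase that acts on the clock, fell at 24 h by 0.87 ± 0.11 with E2 and 0.52 ± 0.11 with E3, the E3 call being lost on the scale of the array median (-0.38) and in a fit of the compared groups only. Where limma called 0 with E3 at 24 h, 1 of the 8 loop genes, 1 of the 3 D-box factors and 2 of the 9 kinases and adaptors had an unadjusted p under 0.05.

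Lists of genes known to respond to glucocorticoids and to cAMP, signals that reset Per genes in other tissues, were described in the same way. Of 8 glucocorticoid-induced genes in a list without Tsc22d3, which fell, 4 rose with E2 at 2 h and 5 with E3, and 0 fell. At 24 h the E2 group had 1 higher and 3 lower, and the E3 group 2 higher and 1 lower, and the medians were 1.11, 1.14, -0.08 and -0.02. Errfi1, a feedback inhibitor of the EGF receptor, rose by 3.75 ± 0.19 and 3.67 ± 0.19 at 2 h, Sgk1, a kinase, by 2.61 ± 0.14 and 2.57 ± 0.14, and Pdk4, a pyruvate dehydrogenase kinase, by 2.33 ± 0.17 and 1.91 ± 0.17. Fkbp5, a chaperone of steroid receptors, rose by 1.77 ± 0.21 and 1.54 ± 0.21. Tsc22d3 moved the other way from these 4. Of 7 cAMP and CREB targets, 5 rose and 2 fell with each oestrogen at 2 h, and 0 rose at 24 h, where 3 fell with E2 and 1 with E3 (medians 1.51, 1.38, -0.37 and -0.03). Nr4a1, an orphan nuclear receptor, rose by 3.89 ± 0.22 and 4.20 ± 0.22, Nr4a2, its relative, by 3.03 ± 0.19 and 2.95 ± 0.19, and Sik1, a kinase that restrains CREB coactivators, by 3.34 ± 0.35 and 3.47 ± 0.35. Ppargc1a, a coactivator for ROR receptors, fell by 2.31 ± 0.25 and 2.35 ± 0.25. The largest adjusted p by limma among the 2 h values of these 8 genes was 0.00013.

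**Figure D5:**
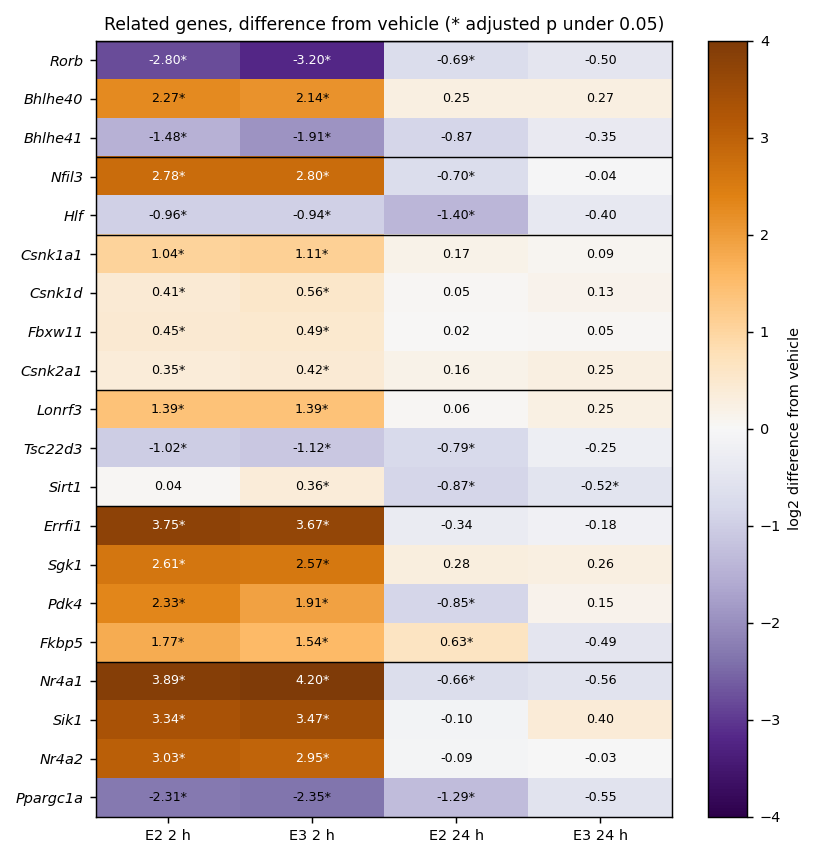
Log2 difference from vehicle for the named genes related to the clock (rows, grouped by list) in the 4 oestrogen groups (columns); colour and number give the value, and a star marks an adjusted p under 0.05. Rorb, Bhlhe41 and Ppargc1a fell and Bhlhe40, Nfil3, Sgk1 and Nr4a1 rose in both 2 h columns, and the E3 24 h column holds 1 star, for Sirt1.

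Whole uterus holds several cell types, so that a lower level may come from fewer cells of a type or from less RNA per cell, which cannot be told apart. Marker lists differed between groups too. Of 7 stromal markers, 3 rose and 2 fell with E2 at 24 h and 3 rose and 1 fell with E3, and their summed linear level, relative to the 75th percentile of each array, was 104 to 123 in vehicle, 266 to 303 in E2 24 h and 223 to 258 in E3 24 h, while the median change of the 7 markers was 0.17 and 0.06. At 2 h, 3 fell with E2 and 6 with E3, with sums of 69.7 to 110 and 63.3 to 81.7. Of 6 smooth muscle markers, 4 rose with E2 at 24 h and 6 with E3, and the sums were 369 to 547 in vehicle, 552 to 903 in E2 24 h and 705 to 864 in E3 24 h. Of 6 epithelial markers, 3 rose with E2 at 24 h and 1 with E3 (sums 122 to 166 in vehicle, 193 to 271 and 183 to 298), and 1 fell with E2 at 2 h. Of 5 macrophage and leucocyte markers, 3 rose in E3 24 h and 1 fell in E2 24 h, and E3 24 h sums of 9.53 to 19.3 lay above the 7.25 to 7.85 of vehicle. The 2 erythrocyte markers tested rose in both E2 groups and in E3 24 h, and 1 rose in E3 2 h, with sums of 11.6 to 19.2 in vehicle and of 21.5 to 45.1 over the oestrogen groups. Of 5 endothelial markers, 3 fell with E2 at 24 h, 1 with E3 at 24 h and 1 with E3 at 2 h. Adipocyte sums ranged from 9.58 to 156 among the vehicle arrays alone, and limma called 0 of the 4 adipocyte markers, with 0 at an unadjusted p under 0.05. Of 4 ovary and oviduct markers, 1 fell with E2 and 2 with E3 at 2 h, and 3 fell with E2 and 2 with E3 at 24 h, with sums of 1.15 to 1.18 in vehicle and of 0.47 to 0.88 over the oestrogen groups. Of 2 skeletal muscle markers, 1 rose with E2 at 24 h, with sums of 5.53 to 8.87 in vehicle and 16.6 to 25.2 there. The sums of 3 eosinophil and neutrophil markers overlapped among all groups. Epx of eosinophils, Cyp19a1 of ovary and Myh4 of skeletal muscle were well above background on at most 2 arrays of any group and were not tested; Ear2 and Hbb-b1 were matched to no probe by name. The part of these markers in the clock gene results was not tested.

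Likeness in pattern was described for 4 members, by the root mean square difference of 5 centred group means over 15792 genes with a symbol; it says nothing of shared function. Nearest to Nr1d1 were Acrbp (0.08), Fam227a (0.08) and Rhebl1 (0.09), and nearest to Dbp were Neurl2 (0.06), Pold4 (0.07) and Poli (0.08). Nearest to Arntl were Tns2 (0.04), Septin3 (0.05) and Zzz3 (0.05), and nearest to Per1 were Zdbf2 (0.04), Ppfibp1 (0.11) and Ddx3x (0.13). All are in log2 units. Zdbf2, Fam227a and Septin3 are dim, with group means down to -7.29, -6.84 and -5.45.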

How the data were processed

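Total RNA of whole uterus was labelled with Cy3 and hybridised to 15 one-colour Agilent arrays, 3 in each of 5 groups, grouped by sample title. The deposited files hold scanner output: the processed signal per spot as an intensity, extracted with Agilent Feature Extraction 9.5 per the submitters' processing notes, and yes-or-no flags (unit: other) for background, saturation and outliers, with probe positions on mm7, all per the file headers. The authors' deposited value table, the series' own, held the same intensity values (largest relative difference 0), so it gave no alternative.

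Control spots and flagged spots were left out, which removed 53 of 41174 probes, and spots of 1 probe were averaged. The log2 intensity minus the 75th percentile of each array was fitted by limma 3.58.1 in R 4.3.3 (1 mean per group, all arrays), after a test of the fit on simulated data. Probes were named through RefSeq accessions and symbols (names only). Each gene's value is that of its probe of highest mean signal, and a gene entered the test where all 3 arrays of some group had that probe well above background, which left 20307 genes. Values of single probes came from the same model over all such probes, adjusted over those. The precision is limited by 3 arrays per group.

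All 10 clock genes are named in every comparison. Of each related list, genes called in at least 2 of the 4 comparisons with vehicle are named, at most 4 a list in order of largest change, except 1 that is not reported here; pattern likeness is given for 1 gene of each arm of the loop. The members and lists were chosen with earlier results of these data known. Other settings were a scale set by the array median, quantile normalization, a normexp background with an offset of 50, no or a stricter filter on dim probes, the mean of probes, each other probe, array weights, a block for slide, for scan day or for the replicate number, scan day 1 alone, only the groups compared, and each array left out. Further software was Python 3.11.15 and pandas 2.3.3, and figures were drawn with matplotlib 3.10.9.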

Additional observations from a re-analysis of the deposited data

Results flagged for a closer look

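Differences between 24 h and 2 h past limma's threshold stood out in 8 of the 10 clock genes within each oestrogen, where 52.3% of all genes passed it with E2 and 49.7% with E3. With E2 the log2 differences of 24 h minus 2 h were -1.02 for Per1, -2.97 for Per2, -2.59 for Cry1, -2.46 for Cry2, -0.36 for Clock, 1.15 for Nr1d1, -0.98 for Nr1d2 and 1.36 for Dbp. With E3 they were -1.43 for Per1, -2.01 for Per2, -1.40 for Cry1, -1.85 for Cry2, -0.38 for Clock, 1.57 for Nr1d1, -0.59 for Nr1d2 and 1.62 for Dbp. All are values of the representative probes. The other Per2 probe gave -1.25 with E2 and -0.75 with E3, and 1 Nr1d1 probe gave 0.18 with E2. The Clock calls were each lost under 10 of 19 alternatives, although 4 of the 4 Clock probes were called lower with E2 and 3 with E3. With slide as a fixed block 0 of the E3 calls were kept, where 0.66% of all genes passed. The hour of collection is in no label, and hour and time after injection cannot be told apart.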

How the results depend on the processing

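The main counts of clock genes called against vehicle were 7 and 6 at 2 h with E2 and E3 and 7 and 3 at 24 h, 0 and 0 for E2 against E3 at 2 h and 24 h, 8 and 8 for 24 h against 2 h with E2 and E3, and 0 for the difference of those differences. For E3 24 h against vehicle the count was 0 with the array median as scale, where 21.3% of all genes were called. It was also 0 without the filter on dim probes (9.73%), with the replicate block (16.8%) and with slide as a random block (12.2%). With scan day as a block (11.6%) and on scan day 1 alone (11.3%) it was 0 too. In a fit of only the groups compared it was 0, where 1 gene in all was called. With the mean of probes it was 5 (20.3%). With 1 array left out it ran from 0 to 5. It was 1 without vehicle replicate 1 (7.04%) and 5 without E3 24 h replicate 1 (26.1%). It was 0 without vehicle replicate 2 (7.22%), E3 24 h replicate 2 (11.3%) or E3 24 h replicate 3 (15.3%). For E2 against E3 at 24 h it was 1 with quantile normalization and with array weights, and 2 with probes well above background on all 15 arrays, with the mean of probes and on scan day 1 alone; with 1 array left out it ran from 0 to 2 (1 without E2 24 h replicate 2 and without E3 24 h replicate 3, 2 without E3 24 h replicate 2). For 24 h against 2 h with E3 it was 0 with slide as a fixed block, where 0.66% of all genes were called. For the difference of differences it was 1 with normexp (5.34% of all genes) and with probes well above background on all 15 arrays (8.5%). It was also 1 with the mean of probes (5.81%) and with array weights (14.0%). With 1 array left out it ran from 0 to 2. It was 1 without E2 24 h replicate 3 (6.15%) and 2 without E3 24 h replicate 2 (10.9%). With 1 array left out the other counts against vehicle were 5 to 7 with E2 at 2 h (29.8% to 37.1% of all genes). They were 5 to 6 with E3 at 2 h (32.5% to 36.8%) and 7 to 8 with E2 at 24 h (34.5% to 39.9%). For E2 against E3 at 2 h they were 0 to 0 (0.0% to 0.00492%). Between the times they were 7 to 9 with E2 (45.0% to 49.9%) and 7 to 8 with E3 (39.6% to 48.9%). The causes of these shifts were not tested.

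Directions turned for Clock at 1 probe with E2 at 2 h (-0.50), and, with E2 at 24 h, for Csnk1d (-0.40) and Fbxw11 (-0.28) under quantile normalization and for Fbxw11 (-0.43) and Lonrf3 (-0.97) under the mean of probes; Fbxw11 also turned with E3 at 24 h under the mean of probes (-0.52). The median scale raised the share of higher among all calls, from 4278 higher and 4537 lower to 6190 and 3026 with E2 at 24 h, from 1970 and 2165 to 3011 and 1315 with E3 at 24 h, from 3157 and 4695 to 4208 and 3115 with E2 at 2 h, and from 3370 and 4799 to 4871 and 2928 with E3 at 2 h.

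The labels give no pairing of samples by replicate number. Over 30 pairs of same-numbered arrays the correlation of deviations ran from -0.22 to 0.21. Differently numbered pairs were not set beside them, so this range does not settle whether samples were paired. With the replicate block 7, 6, 7 and 0 clock genes were called against vehicle, where 37.1%, 38.7%, 41.9% and 16.8% of all genes were. For E2 against E3 the counts were 0 and 0 (0.0% and 13.5% of all genes), and between the times 7 and 7 (51.1% and 48.1%). Slide could be a fixed block only among treated arrays. Signal over background limits the dim probes, among them those of Cry1, 1 of Clock, and the probes of Nr1d1, Cry2 and Per2 that do not represent the gene. The other Nr1d1 probe printed above had means of -4.35 with E2 and -4.25 with E3 at 2 h. The other Cry2 probe had a mean of -4.37 with E2 at 24 h.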
